A study of Mus musculus with 4 samples.

Results

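The mitochondrial ribosomal proteins of mouse were taken as the protein-coding genes whose GENCODE M21 symbol (GRCm38) begins with Mrpl or Mrps and a digit, read from a table of 26561 Ensembl genes. The annotation holds 78 such genes, of which 77 have a row in the table, 48 named Mrpl and 29 named Mrps. Mrpl53 was not analysed here. All 77 passed the filter on low counts, which left 15298 genes for testing. The libraries are messenger RNA of MC38, a wild-type tumour line from a mouse colon carcinoma that the labels call epithelial. The IR group (2 libraries) received 30 Gy of X-rays in 1 fraction and was harvested 60 h later, and the nonIR group (2 libraries) received none. No source used here gives the harvest time of the nonIR cells, so irradiation cannot be told apart from time in culture or cell density. Total counts were 29180110 and 26059171 in IR libraries, against 27995608 and 29881492 in nonIR libraries. The labels do not say whether replicate libraries stem from separate cultures, and p-values therefore measure a spread that may be technical.

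Mitochondria carry their own ribosome, which translates the few membrane proteins encoded by mitochondrial DNA, all of them parts of the respiratory chain and ATP synthase. Its ribosomal RNAs are made from mitochondrial DNA, whereas every one of its proteins is encoded in the nucleus, made in the cytosol and imported. Mrpl genes encode proteins of the large subunit, which joins amino acids, and Mrps genes those of the small subunit, which reads the messenger. Some of these proteins have counterparts in bacterial ribosomes and others were added in mitochondria. The names are not a perfect guide, since the products of Mrps30 and Mrps18a sit in the large subunit and that of Mrps36 belongs to the oxoglutarate dehydrogenase complex.

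Both subunits' genes were lower after irradiation, by similar amounts. Of the 77 genes, 65 fell (84.4%), 1 rose and 11 were not called (edgeR quasi-likelihood test, Benjamini-Hochberg adjusted p under 0.05 over all genes tested). Among all genes tested, 30.3% fell, 30.4% rose and 60.7% changed in either direction. The median log2 fold change (IR minus nonIR) of the family was -0.58, a level 0.670 times that of nonIR cells, with quartiles of -0.75 and -0.34, while the median of all genes tested was 0.01 with quartiles of -0.34 and 0.48. Falls of at least 1.5-fold were fitted for 36 members, against 13.1% of all genes, and falls of at least 2-fold for 8 members, against 4.19% of all genes. In 69 members both IR libraries lay below both nonIR libraries, an arrangement found in 38.7% of all genes, and in 2 both lay above, against 39.7% of all genes. Among the 6220 genes whose mean level lay between 7.65 and 68.5 counts per 1000000 (CPM), the range of the members, 38.5% fell and the median was -0.07. In bulk RNA, a change in the number of cells of a kind and a change in the RNA per cell cannot be told apart.

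Mrpl and Mrps genes differed little in this respect. Of the 48 Mrpl genes, 41 fell, 1 rose and 6 were not called, with a median of -0.56 and a range of -1.31 to 0.21. Of the 29 Mrps genes, 24 fell and 5 were not called, with a median of -0.58 and every fitted value below 0, from -1.39 to -0.08. The summed level of the Mrpl genes was 1407 and 1440 CPM in IR libraries, against 1996 and 2022 CPM in nonIR libraries, a ratio of means of 0.709. For the Mrps genes the sum was 726.6 and 724.2 CPM in IR libraries, against 1057 and 1054 CPM in nonIR libraries, a ratio of 0.687. Each sum was lower in both IR libraries than in either nonIR library. The family took 0.218% and 0.220% of all counts in IR libraries, against 0.300% and 0.301% in nonIR libraries. The Mrpl sum divided by the Mrps sum was 1.937 and 1.989 in IR libraries, against 1.889 and 1.918 in nonIR libraries. These ratios do not overlap, but with 2 libraries a group no exact test can pass 0.05, and the gap between the groups is smaller than the gap between the IR libraries. Sorting the genes by known place in the ribosome, with Mrps36 left out and 5 proteins with other names added, gave 44 lower and 1 higher of 51 large-subunit genes (median -0.58) and 24 lower of 30 small-subunit genes (median -0.58).

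**Figure D1:**
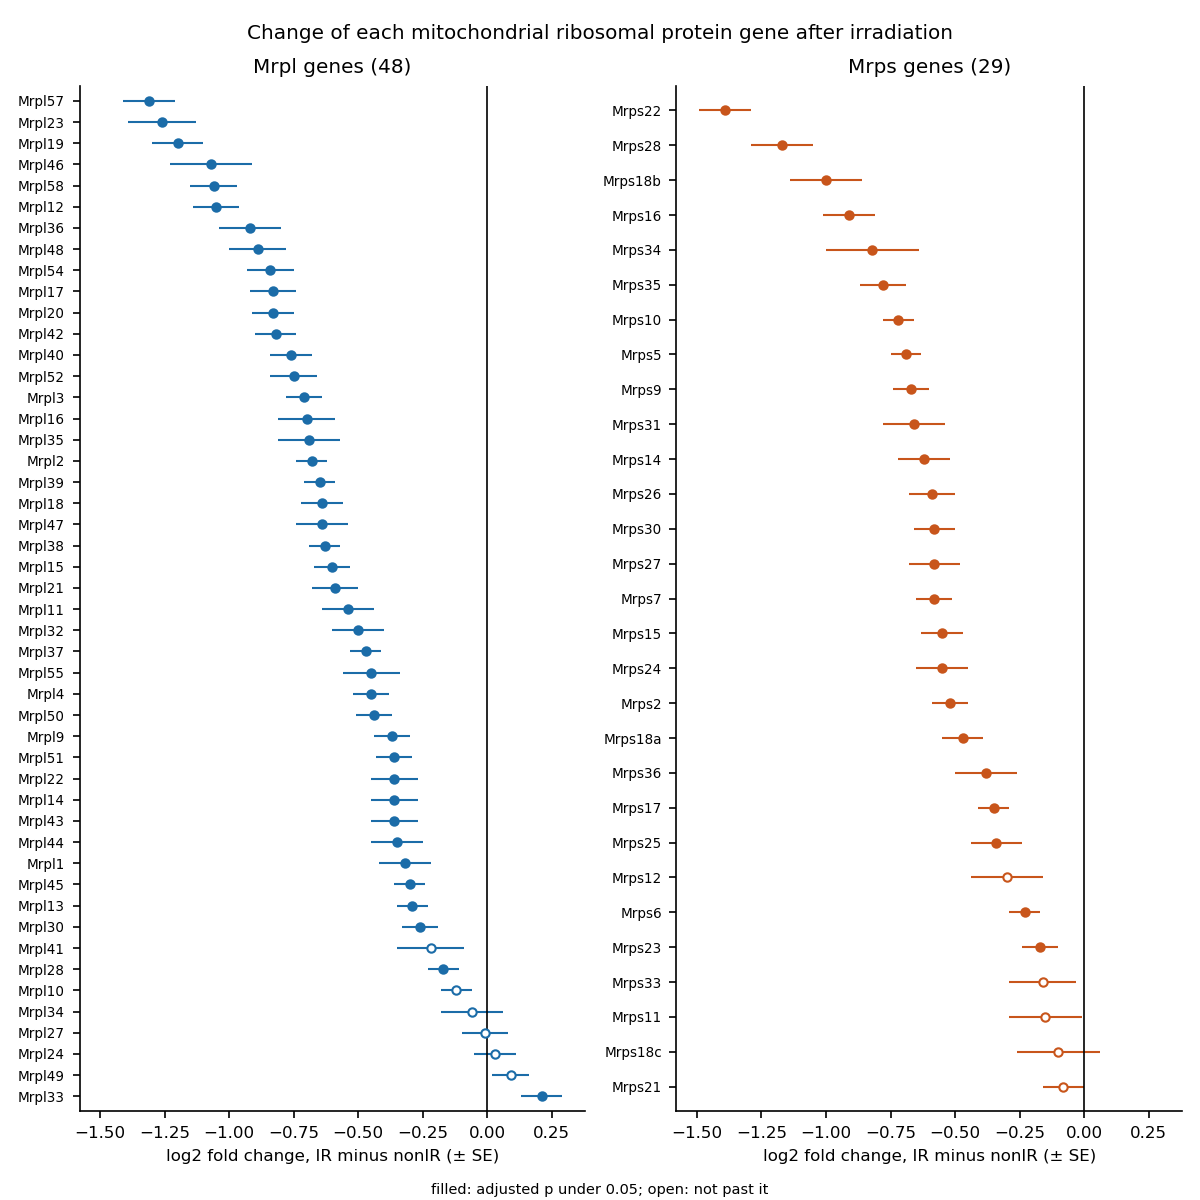
Log2 fold change (IR minus nonIR) of each of the 48 Mrpl genes (left) and 29 Mrps genes (right), with bars of 1 SE from the edgeR fit. Filled points passed an adjusted p of 0.05, and all filled points but Mrpl33 (0.21) lie below 0, down to -1.39 for Mrps22.

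**Figure D2:**
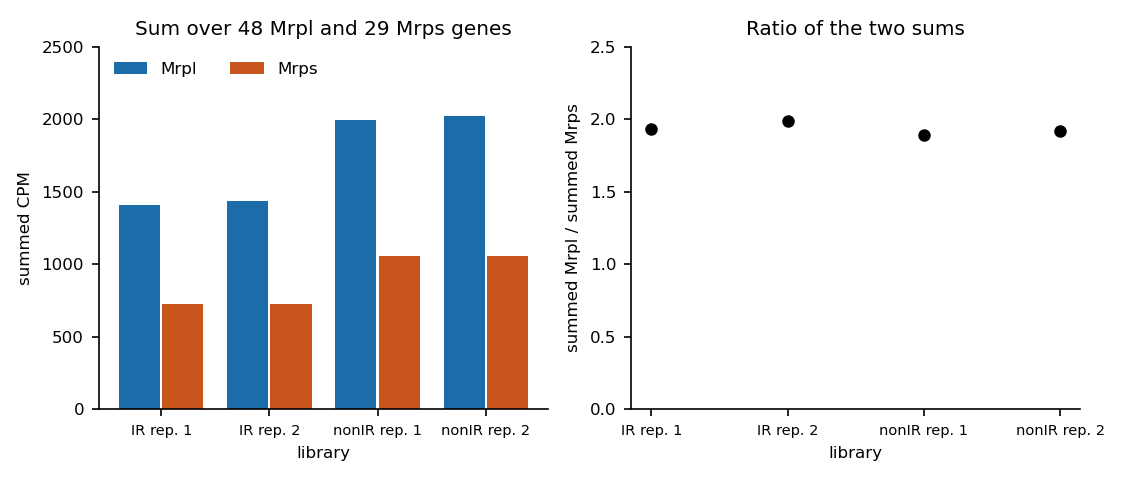
Summed CPM of the Mrpl and Mrps genes in each library (left) and the Mrpl sum divided by the Mrps sum (right). Both sums are lower in the 2 IR libraries than in the 2 nonIR libraries, while the ratio stays between 1.889 and 1.989.

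In the small subunit the largest fall was that of Mrps22 (ENSMUSG00000032459, GRCm38 chr9:98588730-98601660, minus strand), whose product has no bacterial counterpart and whose human gene is mutated in mitochondrial disease. Mrps22 had 15.0 and 12.3 CPM in IR libraries, against 34.4 and 37.5 CPM in nonIR libraries. It was 2.63-fold lower in IR cells, a change of -1.39 on the log2 scale with an SE of 0.10 (edgeR adjusted p = 5.32e-42). Mrps28, the counterpart of a bacterial protein that holds the messenger, had 10.3 and 11.6 CPM in IR libraries, against 25.0 and 24.2 CPM in nonIR libraries, a 2.25-fold fall (edgeR adjusted p = 2.06e-22). Mrps18b, one of several relatives of a single bacterial protein, had 9.10 and 8.55 CPM in IR libraries, against 18.8 and 16.6 CPM in nonIR libraries, a 2.0-fold fall (edgeR adjusted p = 1.03e-12). The IR and nonIR libraries of these genes, chosen for their falls, lie well apart, and every IR value is at or under 15.0 CPM. Mrps16, another protein with a bacterial counterpart, had 19.5 and 17.8 CPM in IR libraries, against 35.9 and 34.0 CPM in nonIR libraries, a 1.88-fold fall (edgeR adjusted p = 1.71e-20). Mrps34, a mitochondrial addition needed for a stable small subunit, had 4.94 and 6.14 CPM in IR libraries, against 9.46 and 10.1 CPM in nonIR libraries (1.77-fold lower, edgeR adjusted p = 1.19e-05). Its exons overlap those of Mapk8ip3 on the other strand over 1309 bases and those of Nme3 on the same strand over 763 bases. Reads of the first overlap cannot be told apart if strand was not used, and a strand setting would not separate those of the second. Mrps35, also without a bacterial counterpart, had 22.7 and 20.3 CPM in IR libraries, against 36.1 and 37.9 CPM in nonIR libraries (1.72-fold lower, edgeR adjusted p = 6.32e-17).

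The large subunit showed 6 falls of at least 2-fold. Mrpl57 (ENSMUSG00000021967, GRCm38 chr14:57826234-57829296, plus strand), a small mitochondrial addition, had 14.2 and 13.2 CPM in IR libraries, against 34.4 and 33.6 CPM in nonIR libraries. The fitted change was -1.31 on the log2 scale with an SE of 0.10, a 2.47-fold fall (edgeR adjusted p = 4.80e-36). Mrpl23, which lines the exit of the peptide tunnel, had 8.60 and 8.55 CPM in IR libraries, against 20.1 and 21.1 CPM in nonIR libraries, a 2.40-fold fall (edgeR adjusted p = 3.72e-21). A pseudogene copy, Mrpl23-ps1, matches its coding sequence over 421 bases and holds 25 counts over all libraries, beside 1652 for Mrpl23. Mrpl19, with a bacterial counterpart, had 17.9 and 13.2 CPM in IR libraries, against 38.6 and 32.9 CPM in nonIR libraries (2.29-fold lower, edgeR adjusted p = 9.68e-33), and overlaps Gcfc2 on the other strand over 1962 bases. Mrpl58, which frees stalled ribosomes by cutting the peptide from its transfer RNA as well as being built into the subunit, had 22.7 and 19.9 CPM in IR libraries, against 44.5 and 44.7 CPM in nonIR libraries (2.09-fold lower, edgeR adjusted p = 1.23e-33). Mrpl12, the stalk protein that recruits translation factors, had 17.5 and 19.1 CPM in IR libraries, against 37.5 and 38.3 CPM in nonIR libraries (2.07-fold lower, edgeR adjusted p = 3.94e-28). Mrpl46, a protein of the central protuberance, had 6.62 and 5.99 CPM in IR libraries, against 10.8 and 15.6 CPM in nonIR libraries (2.10-fold lower, edgeR adjusted p = 5.66e-11). No IR value of these genes, chosen for their falls, reaches a nonIR value of the same gene, an arrangement found in 38.7% of all genes tested.

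Mrpl33 (ENSMUSG00000106918, GRCm38 chr5:31596935-31664384, plus strand), the counterpart of a small bacterial protein, was the single member that rose. It had 42.2 and 36.9 CPM in IR libraries, against 33.0 and 35.6 CPM in nonIR libraries, a change of 0.21 on the log2 scale with an SE of 0.08 (edgeR adjusted p = 0.0165). The lower IR value lies just above the higher nonIR value. The call was lost with DESeq2 (adjusted p = 7.50e-02) and with glmTreat against 1.2-fold, which called no Mrpl gene higher. Without IR replicate 1 the log2 fold change of Mrpl33 shrank to 0.10, and without nonIR replicate 1 to 0.14. In the other alternatives with all libraries, by edgeR, limma-voom or DESeq2, its adjusted p ran from 1.04e-03 to 7.50e-02. Its exons also overlap an unnamed transcript on the same strand over 261 bases. Mrpl49, a mitochondrial addition, had 50.5 and 47.3 CPM in IR libraries, against 46.1 and 45.8 CPM in nonIR libraries, and did not pass the test (log2 fold change 0.09, edgeR adjusted p = 0.257). It was named after its values were seen.

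The smallest falls and the members not called include several of the most abundant per length, but also members of low rank, such as Mrps11 (rank 70 in nonIR libraries). Mrpl2, the highest per length in nonIR libraries, fell with a log2 fold change of -0.68. Mrps6, of the small-subunit platform, had 57.5 and 57.3 CPM in IR libraries, against 68.7 and 66.0 CPM in nonIR libraries, a 1.17-fold fall (edgeR adjusted p = 3.54e-04). On the same strand it shares 159 exon bases with Slc5a3 and 305 with Gm49711, which a strand setting would not separate. Slc5a3 holds 29979 counts over all libraries, beside 7049 for Mrps6. Mrpl28 had 54.4 and 59.4 CPM in IR libraries, against 69.1 and 59.4 CPM in nonIR libraries. It passed the test (log2 fold change -0.17, edgeR adjusted p = 0.00863) although its libraries overlap, the only called member of which this holds. That call was lost without IR replicate 1 (adjusted p = 2.04e-01) and without nonIR replicate 1 (adjusted p = 4.00e-01), and also with library totals, upper-quartile factors or DESeq2 (adjusted p = 9.18e-02, 1.38e-01 and 5.53e-02). In the alternatives with all libraries other than glmTreat, by edgeR, limma-voom or DESeq2, its adjusted p ran from 4.50e-03 to 1.38e-01. Mrps21 had 32.2 and 32.6 CPM in IR libraries, against 34.2 and 34.4 CPM in nonIR libraries, and was not called (log2 fold change -0.08, edgeR adjusted p = 0.424). The other members not called were Mrps12, Mrps33, Mrps11, Mrpl10, Mrps18c, Mrpl34, Mrpl41, Mrpl27, Mrpl24 and Mrpl49, with log2 fold changes from -0.30 to 0.09. A p above the threshold does not show that these were equal in the 2 groups.

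**Figure D3:**
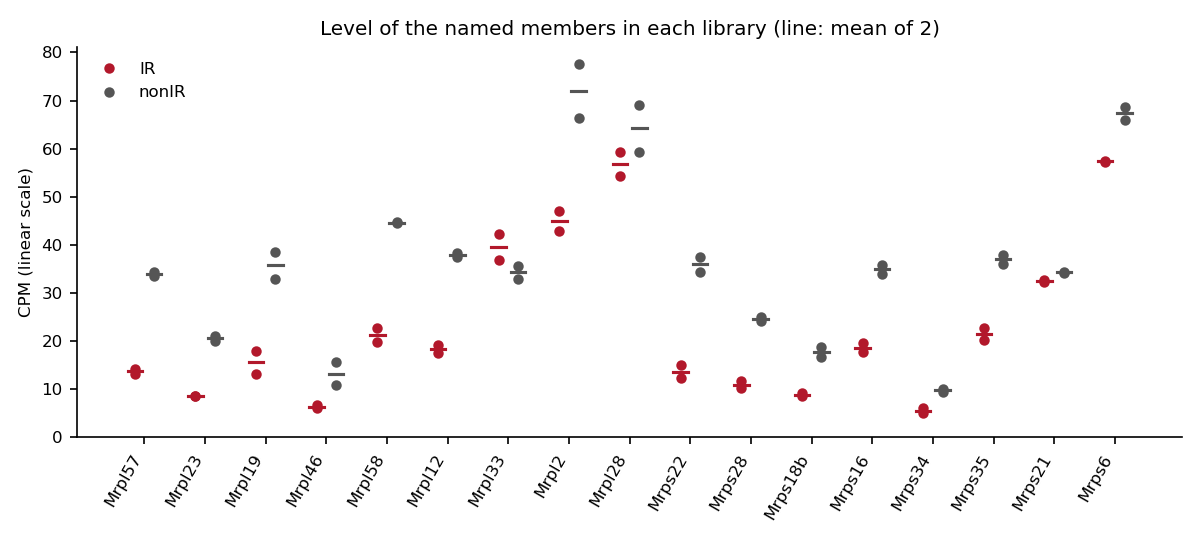
CPM of 17 members in each library, IR in red to the left of nonIR in grey, with a line at the mean of 2 libraries; genes were chosen for the largest changes or the highest level per length in each subunit. The groups do not overlap in any of them except Mrpl28, and Mrpl33 alone is higher in IR.

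Promoters of members at the ends of this range are shown because regulators of mitochondrial genes are known to act there. Each window runs from 250 bases before to 50 bases after a start of transcription in RefSeq (GRCm38.p6), read along the gene. Capitals mark the NRF1 core (GCGCA, any base, then GCGC), the ETS core CCGGAAG (the motif of GABP) or the YY1 form AANATGGCG, on either strand. Positions are those of the first base of the match relative to the start. Mrps22 has an ETS core at position -11 and Mrpl57 an NRF1 core at -57 and an ETS core at 4, while Mrpl33, which rose, has an ETS core at -3.
Mrps22 promoter, chr9:98601630-98601929, minus strand: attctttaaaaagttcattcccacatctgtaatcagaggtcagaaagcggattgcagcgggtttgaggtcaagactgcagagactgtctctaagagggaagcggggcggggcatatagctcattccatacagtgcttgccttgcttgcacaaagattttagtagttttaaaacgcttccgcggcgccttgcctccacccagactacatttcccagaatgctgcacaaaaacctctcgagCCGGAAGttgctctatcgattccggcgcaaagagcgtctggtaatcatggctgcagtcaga
Mrpl57 promoter, chr14:57825989-57826288, plus strand: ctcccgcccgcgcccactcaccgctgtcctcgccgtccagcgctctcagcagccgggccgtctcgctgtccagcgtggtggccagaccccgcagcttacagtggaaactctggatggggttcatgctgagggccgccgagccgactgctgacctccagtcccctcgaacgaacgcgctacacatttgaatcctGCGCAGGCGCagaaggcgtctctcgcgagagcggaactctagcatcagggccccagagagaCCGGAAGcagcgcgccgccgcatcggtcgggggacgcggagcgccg
Mrpl33 promoter, chr5:31613701-31614000, plus strand: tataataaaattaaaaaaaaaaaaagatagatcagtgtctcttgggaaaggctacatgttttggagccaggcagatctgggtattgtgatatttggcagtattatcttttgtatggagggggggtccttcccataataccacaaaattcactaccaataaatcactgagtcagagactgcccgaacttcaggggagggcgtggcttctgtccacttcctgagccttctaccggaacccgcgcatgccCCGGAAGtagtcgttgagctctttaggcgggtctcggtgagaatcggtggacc

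Of the 77 members, 68 matched the RefSeq table, with 74 promoters. An NRF1 core was found in 13 of them (17.6%), an ETS core in 25 (33.8%) and a YY1 form in 11 (14.9%). Over all 13506 listed promoters of tested genes the shares were 9.43%, 16.8% and 4.72%, and over all 32851 listed promoters 4.6%, 8.86% and 2.38%. The full palindromic form of the NRF1 motif, which contains the core, was found in 1 member promoter (1.35%). Among Mrpl promoters 21.3% held the NRF1 core, 29.8% the ETS core and 12.8% the YY1 form, and among Mrps promoters 11.1%, 40.7% and 18.5%. These motifs did not sort the members by their change. The 25 members with an ETS core had a median log2 fold change of -0.58 and the 43 without one -0.54. With an NRF1 core the median was -0.50 over 13 members, and without one -0.55 over 55. With a YY1 form it was -0.58 over 11 members, and without one -0.52 over 57. A match of letters is a description and not evidence of binding.

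Many members start close to another gene that is read in the opposite direction. A protein-coding gene on the other strand starts within 1000 bases of 33 members, and 30 of these neighbours are tested genes outside the family. Of the 30 members, 24 fell, with a median log2 fold change of -0.48. Of their neighbours, 12 fell, 10 rose and 8 were not called, with a median of -0.04. Over all genes tested 30.3% fell and 30.4% rose, with a median of 0.01, so the neighbours lie near the whole. Both genes fell in 11 pairs, and in 7 pairs the member fell while the neighbour rose. In 18 pairs the annotated genes do not overlap at their starts, and there 13 members fell (median -0.48) while 6 neighbours fell, 7 rose and 5 were not called (median 0.27). The difference within a pair was not tested.

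The pairs named next were chosen after their values were seen. Mrpl57 starts 49 bases from Ska3, which encodes a protein of the outer kinetochore. Ska3 had 55.8 and 54.7 CPM in IR libraries, against 38.0 and 35.7 CPM in nonIR libraries, and rose with a log2 fold change of 0.58 (edgeR adjusted p = 1.24e-15), beside -1.31 for Mrpl57. Mrpl2, a core protein near the site of peptide bond formation, had 42.9 and 47.0 CPM in IR libraries, against 77.5 and 66.3 CPM in nonIR libraries (log2 fold change -0.68, edgeR adjusted p = 6.50e-26). Its neighbour Klc4, a kinesin light chain gene that starts 207 bases away, had 17.5 and 18.8 CPM in IR libraries, against 9.17 and 9.76 CPM in nonIR libraries (log2 fold change 0.94, edgeR adjusted p = 1.03e-11). In both pairs the IR and nonIR libraries of either gene lie apart, in opposite directions. Mrps5 fell with a log2 fold change of -0.69 while Zfp661, 128 bases away, rose by 1.03 on the log2 scale. Other pairs fell together. Mrpl18 had a log2 fold change of -0.64 and Tcp1, a subunit of the cytosolic chaperonin, one of -0.74, but their exons overlap on opposite strands over 141 bases, with 40720 counts for Tcp1 over all libraries beside 4131 for Mrpl18.

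**Figure D4:**
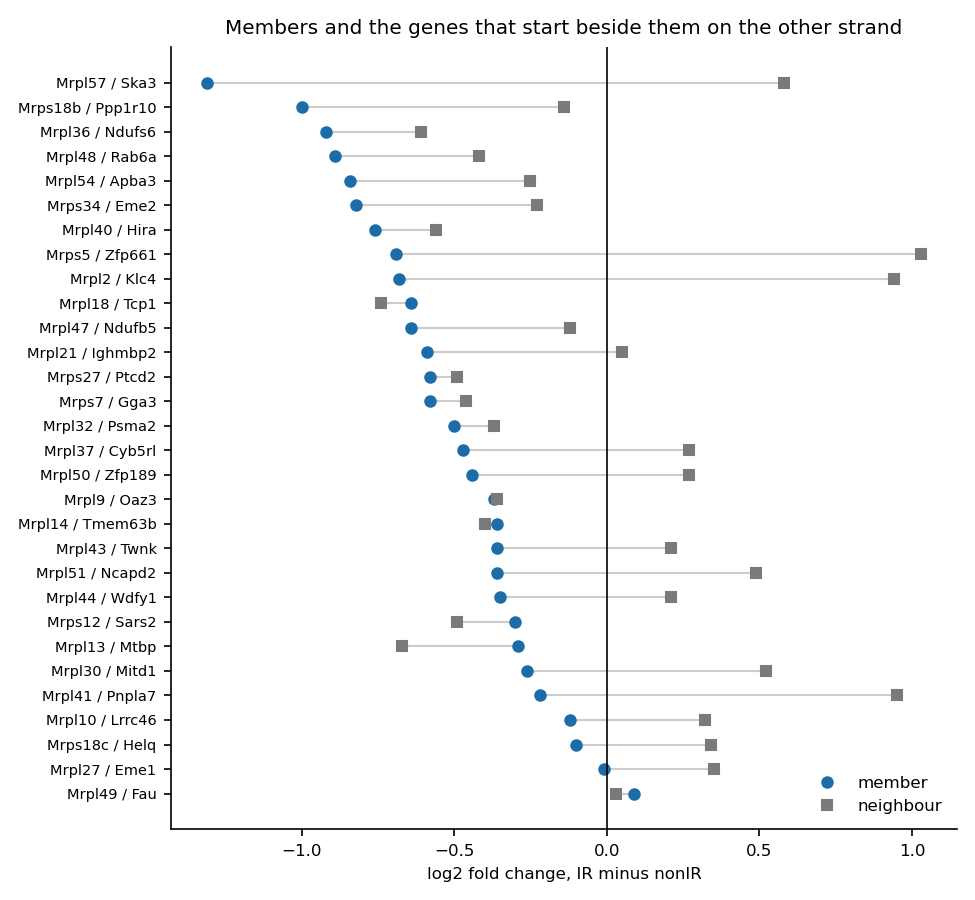
Log2 fold change (IR minus nonIR) of 30 members (circles) and of the gene that starts within 1000 bases on the other strand (squares), sorted by the member. The member lies below its neighbour in 25 of the 30 pairs, and the neighbours spread to both sides of 0.

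The pair Mrpl46 and Mrps11 puts a large-subunit and a small-subunit gene head to head on chromosome 7, and their promoter windows share 141 bases. The windows are shown for what they share. The YY1 form of the Mrps11 window, at position -108 on the reverse strand, lies outside the shared bases. It is just past the end of the Mrpl46 window, which holds no match.
Mrpl46 promoter, chr7:78783040-78783339, minus strand: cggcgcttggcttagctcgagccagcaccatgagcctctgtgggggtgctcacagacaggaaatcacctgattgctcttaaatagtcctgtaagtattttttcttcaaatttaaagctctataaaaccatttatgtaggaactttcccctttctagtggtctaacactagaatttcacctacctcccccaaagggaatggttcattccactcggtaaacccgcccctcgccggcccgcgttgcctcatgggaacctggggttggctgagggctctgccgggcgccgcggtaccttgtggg
Mrps11 promoter, chr7:78782881-78783180, plus strand: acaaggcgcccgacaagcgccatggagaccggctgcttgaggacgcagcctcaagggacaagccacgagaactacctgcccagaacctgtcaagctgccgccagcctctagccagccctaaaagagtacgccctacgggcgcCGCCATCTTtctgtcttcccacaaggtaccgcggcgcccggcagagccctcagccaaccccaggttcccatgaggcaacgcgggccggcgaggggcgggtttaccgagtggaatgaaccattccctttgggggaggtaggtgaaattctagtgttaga

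Mrps11, a platform protein with a bacterial counterpart, had 11.5 and 9.57 CPM in IR libraries, against 10.6 and 12.9 CPM in nonIR libraries, and was not called (edgeR adjusted p = 0.371). Mrpl46, described above, fell with a log2 fold change of -1.07. The ratio of Mrpl46 to Mrps11 was 0.574 and 0.626 in IR libraries, against 1.02 and 1.21 in nonIR libraries, with no overlap. Their exons overlap over 173 bases on opposite strands, so part of the reads may be shared if strand was not used.

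By place in the ribosome, grouped after the values were seen, most of the regions listed hold mainly genes that fell. In the whole family 84.4% fell, and among all genes tested 30.3% did. In the central protuberance, a projection of the large subunit, 8 of 9 genes fell, with a median log2 fold change of -0.75. They include Mrpl48 (-0.89) and Mrpl40 (-0.76), and Mrpl27 (-0.01, edgeR adjusted p = 0.960) was the member not called. Around the peptide exit 5 of 6 fell (median -0.50), from -1.26 for Mrpl23 to -0.30 for Mrpl45, and Mrpl24 (0.03, edgeR adjusted p = 0.763) was not called. In the stalk, Mrpl12 (-1.05) and its base protein Mrpl11 (-0.54) fell and Mrpl10 (-0.12, edgeR adjusted p = 0.0598) was not called. In the small subunit, the 5 genes taken for the head (Mrps7, Mrps9, Mrps10, Mrps14 and Mrps24) fell, within -0.72 to -0.55. On the platform 2 of 5 fell, namely Mrps6 (-0.23) and Mrps15 (-0.55), and Mrps11, Mrps18c and Mrps21 were not called. These groups are short lists that do not hold every gene of a region. The head and platform lists hold only genes with a bacterial counterpart. The Mrps genes found only in mitochondria, which ranged from -1.39 to -0.16, are in neither list. The narrow range of the head thus holds for the genes listed alone, and the difference between the groups was not tested.

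Genes with and without bacterial ancestry were both mostly lower. In the whole family 84.4% fell, while among all genes tested 30.3% fell and 30.4% rose. Among Mrpl genes with a bacterial counterpart 25 of 30 fell and 1 rose (median log2 fold change -0.52), and among those found only in mitochondria 16 of 18 fell (median -0.64). Among Mrps genes the counts were 12 of 16 with a bacterial counterpart (median -0.55) and 10 of 11 found only in mitochondria (median -0.58). The latter group includes Mrps36 and Mrps30. Mrps18a (-0.47) and Mrps18b (-1.0), relatives of a bacterial protein, are in neither group. Across the 77 members, the log2 fold change had a Spearman rho of 0.18 and a Pearson r of 0.20 with the log2 mean level, and of -0.24 and -0.22 with the log2 exon length, as descriptions over genes that share the same 4 libraries. Reads of some members may be shared with other genes: 32 overlap an exon of another gene and 17 have a near-identical copy in the annotation. Of the 34 members with neither, 32 fell and 2 were not called, with a median of -0.61, which was -0.61 for the 22 Mrpl genes and -0.58 for the 12 Mrps genes among them.

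Per kilobase of merged exons, the median level of Mrpl genes was 12.4 and 12.7 CPM in IR libraries, against 17.8 and 17.8 CPM in nonIR libraries. For Mrps genes the median level was 7.35 and 7.56 CPM per kilobase in IR libraries, against 10.3 and 9.97 in nonIR libraries. The Mrpl median was the higher one in every library. Mrps21 was the highest member in IR libraries, at 43.6 and 44.1 CPM per kilobase, against 46.2 and 46.5 in nonIR libraries. Mrpl2 had 36.7 and 40.2 CPM per kilobase in IR libraries, against 66.2 and 56.7 in nonIR libraries, where it was the highest. Mrpl28, next to them in the order, had 39.4 and 43.1 in IR libraries, against 50.0 and 43.0 in nonIR libraries, so that in nonIR libraries it cannot be set apart from Mrps21. The lowest was Mrpl48, at 1.65 and 1.49 CPM per kilobase in IR libraries, against 2.93 and 2.89 in nonIR libraries. The order depends on the length used, since with the principal transcript in place of merged exons Mrpl33 ranks 5 in nonIR libraries instead of 73.

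Proteins of the mitochondrial ribosome with other names were lower too. Of 5, 4 fell and 1 was not called (median log2 fold change -0.66). Gadd45gip1, a large-subunit protein, had 8.80 and 9.79 CPM in IR libraries, against 18.1 and 18.9 CPM in nonIR libraries (log2 fold change -1.0, edgeR adjusted p = 3.69e-13). Dap3, a GTP-binding protein of the small subunit, fell by 0.16 on the log2 scale (edgeR adjusted p = 0.0072). Of 26 factors that build the ribosome, 16 fell and 10 were not called (median -0.37), while 30.3% of all genes tested fell. Rcc1l, an assembly factor, had 8.60 and 10.1 CPM in IR libraries, against 18.6 and 17.9 CPM in nonIR libraries (log2 fold change -0.97, edgeR adjusted p = 1.70e-12).

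Genes for the machinery that works with the ribosome were also often lower, beside 30.3% of all genes tested that fell. No test was made between these lists and the family. Of 15 translation factors, 8 fell and 7 were not called (median log2 fold change -0.26). Tsfm, the exchange factor for the elongation factor Tufm, had 17.5 and 15.3 CPM in IR libraries, against 33.9 and 30.3 CPM in nonIR libraries (log2 fold change -0.96, edgeR adjusted p = 5.22e-21). Of 20 genes that charge mitochondrial transfer RNAs, 15 fell and 5 were not called (median -0.40). Yars2, the tyrosyl-tRNA synthetase, had 14.5 and 14.8 CPM in IR libraries, against 31.5 and 33.4 CPM in nonIR libraries (log2 fold change -1.14, edgeR adjusted p = 5.92e-28). Lars2, the leucyl-tRNA synthetase, named after its values were seen, had 74.0 and 252 CPM in IR libraries, against 74.9 and 73.4 CPM in nonIR libraries. The high value is that of IR replicate 2 alone, and the gene was not called (edgeR adjusted p = 0.415).

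The RNAs made from mitochondrial DNA were more often higher than lower in IR cells. Nuclear genes for mitochondrial transcription and for replication were kept in the same list, which therefore does not describe transcription alone. Of its 10 genes 2 fell (Ssbp1 and Tfb2m), 2 rose (Twnk and Mgme1) and 6 were not called. Over all genes tested 30.3% fell and 30.4% rose. Ssbp1, which coats single-stranded mitochondrial DNA, had 38.1 and 34.0 CPM in IR libraries, against 53.9 and 55.7 CPM in nonIR libraries (log2 fold change -0.60, edgeR adjusted p = 3.09e-16). Twnk, the mitochondrial helicase, had 41.1 and 42.8 CPM in IR libraries, against 36.3 and 36.0 CPM in nonIR libraries (log2 fold change 0.21, edgeR adjusted p = 0.0108), and it overlaps Mrpl43 on the other strand. Of the 13 proteins encoded by mitochondrial DNA, 7 were higher, 2 lower and 4 not called (median log2 fold change 0.24). The lower ones were mt-Nd1, with 2570 and 2530 CPM in IR libraries, against 3290 and 3430 CPM in nonIR libraries (log2 fold change -0.40, edgeR adjusted p = 3.92e-98), and mt-Nd2. Among those that rose with a mean of at least 5 CPM the largest change was that of mt-Co3, with 17.5 and 27.9 CPM in IR libraries, against 17.6 and 16.0 CPM in nonIR libraries (log2 fold change 0.43, edgeR adjusted p = 2.34e-04), whose groups overlap. Both ribosomal RNAs of the mitochondrial ribosome were higher. mt-Rnr1 had 568 and 630 CPM in IR libraries, against 260 and 257 CPM in nonIR libraries (log2 fold change 1.21, edgeR adjusted p = 4.29e-314). mt-Rnr2 had 959 and 1060 CPM in IR libraries, against 495 and 529 CPM in nonIR libraries (log2 fold change 0.98, edgeR adjusted p = 2.19e-112). No source used here says how messenger RNA was selected, so the share of ribosomal RNA that these libraries kept is unknown. The nuclear genome also holds near-identical stretches of mitochondrial DNA, so these counts are uncertain.

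Regulators known to drive nuclear genes for mitochondria were mostly lower. Of 9 tested, 7 fell and 2 were not called (median log2 fold change -0.59), while 30.3% of all genes tested fell. Pprc1, a coactivator of NRF1, had 63.5 and 62.9 CPM in IR libraries, against 133 and 129 CPM in nonIR libraries (log2 fold change -1.05, edgeR adjusted p = 7.24e-87). Nrf1 itself had 25.4 and 28.1 CPM in IR libraries, against 47.2 and 54.0 CPM in nonIR libraries (log2 fold change -0.92, edgeR adjusted p = 2.42e-30). Of the GABP subunits, Gabpa fell by 0.38, Gabpb1 by 0.62 and Gabpb2 by 0.10 on the log2 scale. Gabpb2 had 182 and 182 CPM in IR libraries, against 192 and 197 CPM in nonIR libraries (edgeR adjusted p = 0.0257). Yy1, with 102 and 115 CPM in IR libraries, against 113 and 111 CPM in nonIR libraries, was not called (edgeR adjusted p = 0.451). Ppargc1a had 1 and 4 counts in IR libraries, against 0 in each nonIR library, and did not pass the filter. Nrf1, Gabpa, Gabpb1, Gabpb2 and Yy1 were named after their values were seen. Of 11 genes for mitochondrial chaperones, proteases and their regulator Atf5, 8 fell and 3 were not called (median -0.47). Atf5, a transcription factor of the mitochondrial stress response, had 94.2 and 96.2 CPM in IR libraries, against 168 and 172 CPM in nonIR libraries (log2 fold change -0.84, edgeR adjusted p = 1.66e-72).

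**Figure D5:**
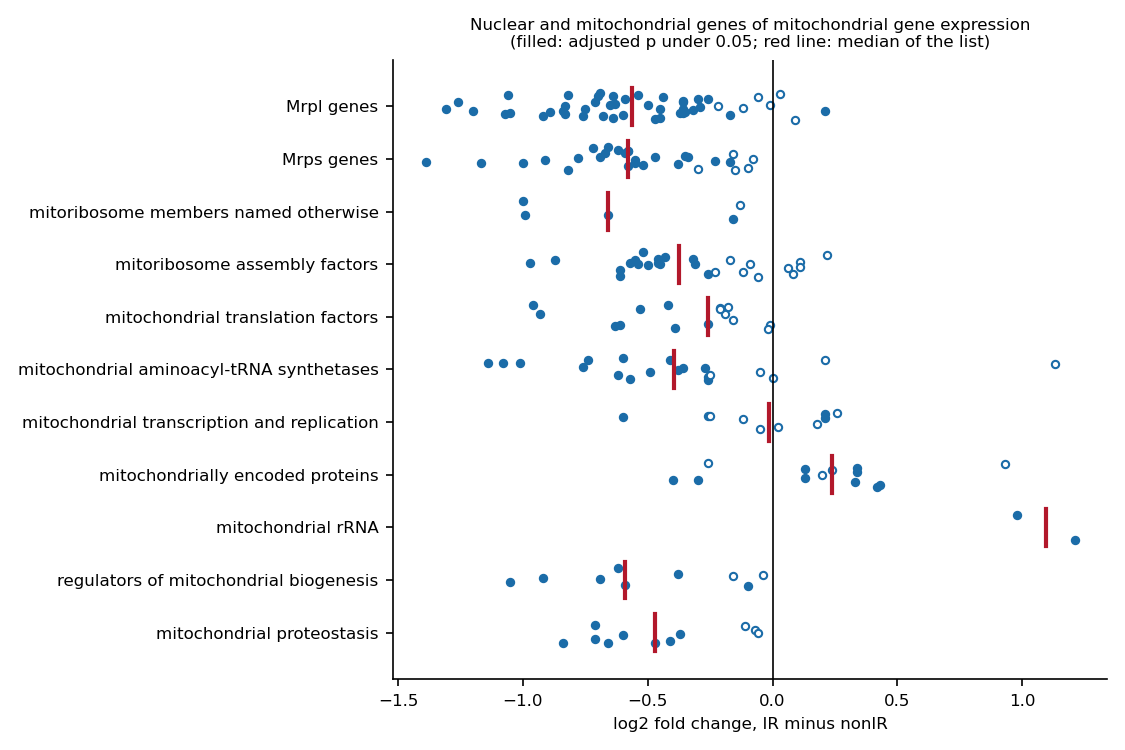
Log2 fold change (IR minus nonIR) of each tested gene in 11 lists of mitochondrial gene expression, with filled points past an adjusted p of 0.05 and a red line at the list's median. The medians lie at -0.56 for Mrpl genes, -0.58 for Mrps genes and 0.24 for proteins encoded by mitochondrial DNA, and the ribosomal RNAs lie at 0.98 and 1.21.

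The proteins of the cytosolic ribosome offer the nearest set of similar size. Of 76 such genes, 32 fell (42.1%), 19 rose (25.0%) and 25 were not called, with a median log2 fold change of -0.04. Over all genes tested 30.3% fell and 30.4% rose. In the cytosolic set 1 gene fell by at least 1.5-fold, against 36 of 77 in the mitochondrial family. The cytosolic set summed to 46130 and 46130 CPM in IR libraries, against 47200 and 47470 CPM in nonIR libraries. Of 77 nuclear genes for the respiratory chain and ATP synthase, the partners of the mitochondrial products, 54 fell, 4 rose and 19 were not called (median -0.36). Their summed level was 6629 and 6582 CPM in IR libraries, against 8289 and 8352 CPM in nonIR libraries. No test between these sets and the mitochondrial ribosome was made.

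The labelled epithelial type is not borne out by all of its markers. Of its 5 markers, 2 of the 3 tested were higher, while 30.4% of all genes tested rose. The 5 markers summed to 75.6 and 69.8 CPM in IR libraries, against 38.4 and 36.5 CPM in nonIR libraries. Epcam had 1 count over all libraries and Krt18 had 2 and 3 counts in IR libraries, against 0 in both nonIR libraries, while Cdh1 was expressed, at 73.0 and 67.7 CPM in IR libraries, against 36.3 and 34.6 CPM in nonIR libraries (edgeR adjusted p = 2.38e-48). All 5 fibroblast markers were higher, with a summed level of 1104 and 1126 CPM in IR libraries, against 857 and 848.3 CPM in nonIR libraries. Dcn, a matrix proteoglycan gene, had 36.0 and 36.4 CPM in IR libraries, against 1.67 and 1.99 CPM in nonIR libraries (edgeR adjusted p = 1.52e-182). Of the 3 leukocyte markers tested, 2 were higher. Cd68, a lysosomal protein gene, had 37.6 and 31.6 CPM in IR libraries, against 4.62 and 3.84 CPM in nonIR libraries (edgeR adjusted p = 7.46e-122), while Cd3e had 1 and 0 counts in IR libraries, against 0 in both nonIR libraries, and Ptprc stayed under 1 CPM. The 4 endothelial markers summed to 6.22 and 6.56 CPM in IR libraries, against 2.58 and 1.92 CPM in nonIR libraries. The part of these markers in the falls described here was not tested.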

How the data were processed

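Bulk RNA-seq libraries of MC38 cells were grouped by their titles into 2 IR and 2 nonIR libraries. One description disagrees with its title on the replicate number, and the title, which matches the column name, was followed. The deposited values are whole-number counts per Ensembl gene, not normalized or pooled. The mm10 build and the tools HTSeq, HISAT2, HISAT and DESeq2 are named in the submitters' processing notes. No source used here gives the annotation release, the strand setting or the handling of reads that match several places.

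Symbols, exons and coordinates come from GENCODE M21 (GRCm38), which holds 26372 of the 26561 table genes. Counts were tested with glmQLFit (robust) and glmQLFTest of edgeR 4.0.16 under R 4.3.3, after TMM scaling and a filterByExpr filter, and the Benjamini-Hochberg adjustment ran over all 15298 genes left. CPM are counts per 1000000 of the TMM-scaled library size. Each SE is the size of the log2 fold change over the root of its F statistic. The estimated prior degrees of freedom were infinite for 13772 genes, whose spread is thus the fitted trend. The common biological coefficient of variation was 4.57%. Replicate libraries varied beyond counting noise (mean chi-square per gene 4.73 in IR and 3.38 in nonIR). Near-identical copies share at least 95% identity over 100 bases or more of coding sequence. The steps were tested on simulated data. Promoter windows come from RefSeq (GRCm38.p6).

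Members, companion lists and tests were chosen with earlier results of these data known, and the regional groups after the values were seen. Members named are, per subunit, the 6 largest falls, up to 4 rises among those past the threshold, the 2 highest per kilobase, and, per companion list, the largest called rise and fall at a mean of at least 5 CPM. One marker gene is not reported here. Genes named beyond this rule were chosen after their values were seen, including the members listed as not called or by region. Alternatives were other scalings, filters, DESeq2 1.42.0, limma-voom (limma 3.58.1), glmTreat, a replicate block and leaving out each library.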

Additional observations from a re-analysis of the deposited data

How the results depend on the processing

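None of the 17 named members, the medians or the summed levels reversed direction under the alternatives run for them, and the falls kept their call for 62 to 65 of the 65 members under every alternative but glmTreat against 1.2-fold, which kept 50. The median log2 fold change, -0.56 for Mrpl and -0.58 for Mrps genes, became -0.50 and -0.52 with library totals alone, -0.49 and -0.51 with upper-quartile factors, and -0.53 and -0.54 for genes of a mean of at least 1 CPM, and with every gene with any count it was -0.60 for Mrps. These scalings put the median of all genes at 0.07 and 0.08. The summed level in IR over nonIR, 0.709 for Mrpl and 0.687 for Mrps genes, became 0.738 and 0.716 with library totals, 0.745 and 0.722 with upper-quartile factors, and 0.682 and 0.671 without members that overlap a gene or have a copy, and was 0.690 for Mrps with DESeq2 size factors. The count of Mrpl genes that rose was 0 with DESeq2 and with glmTreat and 2 with upper-quartile factors, and glmTreat called 2791 of all genes lower, in place of 4634. Leaving out each library in turn gave 40 to 41 Mrpl and 22 to 24 Mrps genes that fell, 0 to 1 Mrpl genes that rose, and medians from -0.58 to -0.55 for Mrpl and from -0.59 to -0.54 for Mrps, the lone sample being assumed to vary like the other group. With each named member under 12 alternatives, 196 of 204 results kept their side of the threshold, and the other 8 were Mrpl28 or Mrpl33 losing the call. Those 12 did not include glmTreat, under which Mrpl33 also lost its call. The replicate block left 41 Mrpl and 24 Mrps genes lower, with medians of -0.56 and -0.58. Nothing in the labels pairs libraries of the same number. Deviations of same-numbered libraries had a correlation of -0.0041, but with 2 libraries a group this value cannot tell whether they share a culture or a batch. Members averaged 7.65 to 68.5 CPM, and with 2 libraries a group changes smaller than those called may go undetected.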
